A study of Mus musculus with 20 samples.

Results

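The 9 genes of the neuronal A-type potassium channel complex described here are the pore-forming subunits *Kcnd1*, *Kcnd2* and *Kcnd3*, the cytoplasmic KChIP subunits *Kcnip1*, *Kcnip2*, *Kcnip3* and *Kcnip4*, and the DPP-like subunits *Dpp6* and *Dpp10*. They were taken by name, whatever their levels, from the 35580 genes to which the transcripts of the series were matched, and they have 48 annotated transcripts among 113580. RNA-seq was performed on hippocampus and neocortex of male mice aged 13.5 months. Their founders, of mixed C57BL/6 and CBA/ca origin, were backcrossed onto C57BL/6J, and crosses of heterozygotes gave the WT and miR-324-null lines. The 4 groups are WT hippocampus, miR-324-null hippocampus, WT neocortex and miR-324-null neocortex, with 5 samples in each. miR-324-null mice carry a CRISPR/Cas9 deletion of *Mir324* in every cell of the body, WT mice carry no engineered allele, and no group was treated. The deletion could not be checked here because *Mir324* was not analysed.

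Kv4 channels open below the threshold of the action potential, inactivate rapidly and carry much of the A-type current in the dendrites of pyramidal neurons, where they damp incoming excitation. KChIPs are calcium-binding proteins that attach to the N-terminus of Kv4, bring the channel to the membrane and slow its inactivation. DPP-like proteins are membrane-spanning relatives of dipeptidyl peptidases without enzymatic activity, which speed the opening, inactivation and recovery of the channel. *Kcnd2* has been described as a target of miR-324-5p, so the genotype comparison asks whether its mRNA, or that of its partners, differed without the miRNA. According to the authors of the data, that description rested on luciferase and protein assays, with mRNA levels unchanged. They also reported no significant change of the *Kcnd2* mRNA in their RNA-seq. An unchanged mRNA therefore does not test an effect on the protein.

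A miRNA pairs with target mRNAs mainly through its seed, bases 2 to 8. Both arms of miR-324 are shown because the seed defines which 3′UTRs of the Kv4 genes hold a match. The sequences are those of RefSeq on GRCm38.p6, at chr11:70012060-70012082 and chr11:70012095-70012114 on the plus strand, and capitals mark the seed.
miR-324-5p: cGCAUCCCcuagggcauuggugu
miR-324-3p: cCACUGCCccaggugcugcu

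The annotated 3′UTRs of the 9 genes were searched on the transcript strand for the complement of the 5p seed (GGGATGC) and of the 3p seed (GGCAGTG). A match to the whole seed is a 7mer-m8, with an A following it an 8mer, and a match to seed bases 2 to 7 followed by an A is a 7mer-A1. The windows below are the matches found in Kv4 and DPP-like transcripts, on GRCm38, with the match in capitals. *Kcnd2* lies on chromosome 6 (21215503 to 21729805, plus strand), and its single annotated transcript, Kcnd2-201, has a 3′UTR of 2463 bases with an 8mer to miR-324-5p at bases 659 to 666 and a 7mer-A1 to miR-324-3p at bases 501 to 507.
Kcnd2-201, miR-324-5p, chr6:21727992-21728014, plus strand: tttctcatgGGGATGCAcactag
Kcnd2-201, miR-324-3p, chr6:21727834-21727855, plus strand: ttctttggaGCAGTGAtctcag
*Dpp10* lies on chromosome 1 (123321471 to 124045559, minus strand), and its transcript Dpp10-202 has a 3′UTR of 12778 bases with 2 matches to miR-324-5p, at bases 3935 to 3942 and 9902 to 9908.
Dpp10-202, miR-324-5p, chr1:123330301-123330323, minus strand: gaaaggatgGGGATGCAgttcaa
Dpp10-202, miR-324-5p, chr1:123324335-123324356, minus strand: acttacttgGGGATGCtactcc
*Kcnd1* (chromosome X, 7822289 to 7838280, plus strand) and *Dpp6* (chromosome 5, 26817203 to 27727505, plus strand) held matches to miR-324-3p only, 1 in the 1777 bases of Kcnd1-201 and 2 in the 1749 bases of Dpp6-202.
Kcnd1-201, miR-324-3p, chrX:7837889-7837911, plus strand: gtctctgtaGGCAGTGAagccag
Dpp6-202, miR-324-3p, chr5:27725830-27725851, plus strand: ccctccaagGGCAGTGggagtg
Dpp6-202, miR-324-3p, chr5:27726763-27726784, plus strand: tatcccacaGGCAGTGtggtct

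The shorter 3′UTR of Dpp10-201, of 2107 bases, held no match to either arm. No match was found in the 4793 bases of Kcnd3-202 or in any annotated 3′UTR of the 4 KChIP genes. The authors also describe another isomiR of miR-324-3p with a different seed, and matches to that seed were not searched. A 7mer-m8 or 8mer to miR-324-5p was found in the longest 3′UTR of 2 of the 9 genes, as against 7.316% of 21010 genes and 13.29% of the 2595 genes whose 3′UTR is within 20% of the length of that of *Kcnd2*. For miR-324-3p the count was also 2 of 9, as against 12.63% of all genes. Among genes within 20% of the 3′UTR length of *Kcnd1*, *Dpp6* or *Kcnd2* the share was 17.27%, 17.23% and 22.62%. The median longest 3′UTR was 1777 bases for the 9 genes and 955 bases for all genes. No set of genes was matched to the length of Dpp10-202. A match is a sequence feature and was not tested as a binding site here.

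**Figure D1:**
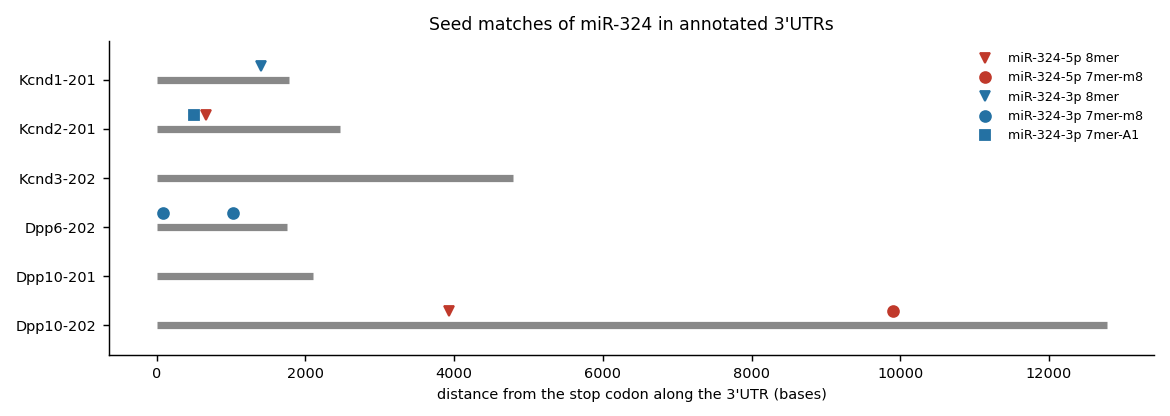
Positions of seed matches to miR-324-5p (red) and miR-324-3p (blue) along annotated 3′UTRs, in bases from the stop codon, with each grey bar as long as the 3′UTR. Kcnd2-201 holds 1 match to each arm, both matches of Dpp10-202 lie beyond the end of the shorter Dpp10-201, and Kcnd3-202 holds none.

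The sum of estimated counts per sample lay between 12752439 and 19617765. The tissue labels were checked with marker genes. The summed TPM of 10 hippocampal neuron markers was 442 to 511 in hippocampus and 226 to 284 in neocortex, and that of 10 neocortical layer markers was 133 to 204 in hippocampus and 434 to 695 in neocortex. In choroid plexus markers, such as *Ttr*, 3 libraries stood apart, with summed TPM of 6905 in WT hippocampus replicate 3, 5974 in miR-324-null hippocampus replicate 5 and 1277 in miR-324-null neocortex replicate 2, against 16.8 to 175 in the 17 others. Striatal markers were at 310.0 to 948 in miR-324-null neocortex, 185 to 479 in WT neocortex and 131 to 181 in hippocampus. Each list had transcripts detected for all of its genes. Results that rest on these libraries are given with and without them.

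Across the 9 genes, no difference between miR-324-null and WT mice passed the test in either tissue. By the quasi-likelihood test of edgeR, adjusted after Benjamini-Hochberg, 0 of 9 genes passed an adjusted p of 0.05 in the hippocampus, where 0.115% of 14796 genes did, and 0 of 9 in the neocortex, where 0.315% of 14930 genes did. At an unadjusted p under 0.05 the counts were 0 of 9 in hippocampus and 1 of 9 in neocortex, the 1 being *Dpp10*, where 11.1% and 12.2% of all genes tested were under it. DESeq2 also called 0 of the 8 genes to which it gave an adjusted p in hippocampus and 0 of 9 in neocortex. The median log2 fold change of the 9 genes was −0.01 in hippocampus and 0.02 in neocortex, beside 0.0012 and 0.0046 over all genes tested. The groups of the 2 genotypes overlapped for all 9 genes in both tissues, where 2.48% of genes in hippocampus and 2.33% in neocortex had groups that did not overlap.

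Among the pore subunits, *Kcnd2*, which encodes Kv4.2, had in WT hippocampus 106.8, 121.5, 115, 116 and 102 CPM (counts scaled to library size, TMM-normalized) in replicates 1 to 5. In miR-324-null hippocampus the levels were 86.1, 92.9, 135, 127.8 and 115 CPM. The means were 112 ± 7.78 and 111 ± 21.4 CPM (SD, n = 5 each), and the miR-324-null values lay both below and above those of all WT samples. Its log2 fold change was −0.01 (SE 0.11, 95% confidence interval −0.26 to 0.23, adjusted p = 0.983). The 2 low samples, replicates 1 and 2, also had the lowest summed TPM of neocortical layer markers in that group, 138 and 133 against 154 to 204 in the others. Other marker lists set replicate 1 apart too, with the lowest hippocampal neuron sum (442) and the highest interneuron sum (2252) of the group. In striatal markers replicate 1 was the highest (156) and replicate 2 the lowest (131). The part of these marker differences in the spread was not tested.

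In the neocortex the *Kcnd2* levels were 93.1, 86.0, 89.6, 79.9 and 82.6 CPM in WT and 86.2, 98.1, 94.5, 91.9 and 91.3 CPM in miR-324-null samples. The spread was smaller than in the hippocampus and the groups overlapped. The log2 fold change was 0.11 (SE 0.05, 95% confidence interval −0.01 to 0.22, adjusted p = 0.442). The difference of the genotype effect between the tissues was −0.11 on the log2 scale (95% confidence interval −0.39 to 0.17, adjusted p = 0.966 for the interaction in edgeR's quasi-likelihood test).

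*Kcnd3*, encoding Kv4.3, had 83.4 to 114 CPM in the WT and 90.0 to 115 CPM in the miR-324-null hippocampus, with a log2 fold change of 0.15 (SE 0.09, adjusted p = 0.573). In the neocortex its log2 fold change was 0.13 (adjusted p = 0.706). *Kcnd1*, encoding Kv4.1, was the lowest of the 9 genes with 9.16 to 15.1 CPM over all samples, and its log2 fold changes were −0.09 in hippocampus (adjusted p = 0.803) and −0.04 in neocortex (adjusted p = 0.947). Its lowest level in each hippocampal group, 9.22 CPM for WT and 9.16 CPM for miR-324-null mice, was in the library high in choroid plexus markers.

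Of the KChIP genes, *Kcnip2*, which encodes the main KChIP of forebrain pyramidal neurons, had the largest genotype difference in size. Its levels were 154, 161, 193, 172 and 159.6 CPM in WT and 198, 211, 147, 167 and 242 CPM in miR-324-null hippocampus. The means were 168 ± 15.5 and 193 ± 37.0 CPM (SD, n = 5 each), yet the lowest of the 10 samples was also a miR-324-null one. The log2 fold change was 0.20 (SE 0.12, 95% confidence interval −0.05 to 0.46, adjusted p = 0.541) and 0.16 (adjusted p = 0.576) without the libraries high in choroid plexus markers, which held the highest level of each group. In the neocortex *Kcnip2* had a log2 fold change of 0.10 (adjusted p = 0.813).

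*Kcnip1*, *Kcnip3* (also known as calsenilin or DREAM, a calcium-binding transcriptional repressor) and *Kcnip4* had log2 fold changes between −0.06 and −0.02 in hippocampus and between −0.08 and 0.02 in neocortex. Their adjusted p-values lay between 0.673 and 0.964. The widest 95% confidence interval of the 3 was that of *Kcnip1* in hippocampus, −0.26 to 0.21 on the log2 scale.

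The DPP-like genes had opposite signs in the neocortex. *Dpp6* was at 199, 197, 191, 162 and 182 CPM in WT and at 227, 214, 205, 217 and 172 CPM in miR-324-null neocortex, so that 4 of 5 miR-324-null samples were above all WT samples. The log2 fold change was 0.16 (SE 0.08, 95% confidence interval −0.01 to 0.33, adjusted p = 0.427), and without miR-324-null neocortex replicate 5 it was 0.22 (adjusted p = 0.0597, the lowest of a range of 0.0597 to 0.675 over the fits that leave out 1 sample). In that fit 566 of 15071 genes passed, beside 47 of 14930 with all samples. Replicate 5 had the highest neocortical layer marker sum (695 TPM) and the lowest striatal one (310 TPM) of its group. The part of this in the *Dpp6* value was not tested. *Dpp10* was at 181, 159.9, 162, 147 and 171 CPM in WT and at 145, 148, 151, 158 and 149.7 CPM in miR-324-null neocortex. Its log2 fold change was −0.12 (SE 0.05, 95% confidence interval −0.23 to −0.003, adjusted p = 0.398). In the hippocampus the log2 fold changes were 0.03 for *Dpp6* (adjusted p = 0.919) and 0.04 for *Dpp10* (SE 0.22, 95% confidence interval −0.43 to 0.51, adjusted p = 0.970), the latter the least precise of the set. None of the 9 genes passed the test of the interaction between genotype and tissue in edgeR, where 0.0195% of 15391 genes did. At an unadjusted p under 0.05 the count was 0, where 5.57% of all genes were under it. DESeq2 also called 0 of the 9 genes, and 6 of 16642 genes over all. In 9 of 10 striatal marker genes the genotype difference in neocortex reached an unadjusted p under 0.05 in edgeR, with 0 called. So did 5 of 8 hippocampal and 6 of 10 neocortical layer markers, also with 0 called, beside 12.2% of all genes. The median log2 fold change was 1.05 for striatal, 0.54 for hippocampal and −0.21 for neocortical layer markers. The part of these marker differences in the neocortical values was not tested. Without the library highest in striatal markers in each neocortical group the log2 fold changes were 0.18 for *Dpp6* and −0.14 for *Dpp10*.

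**Figure D2:**
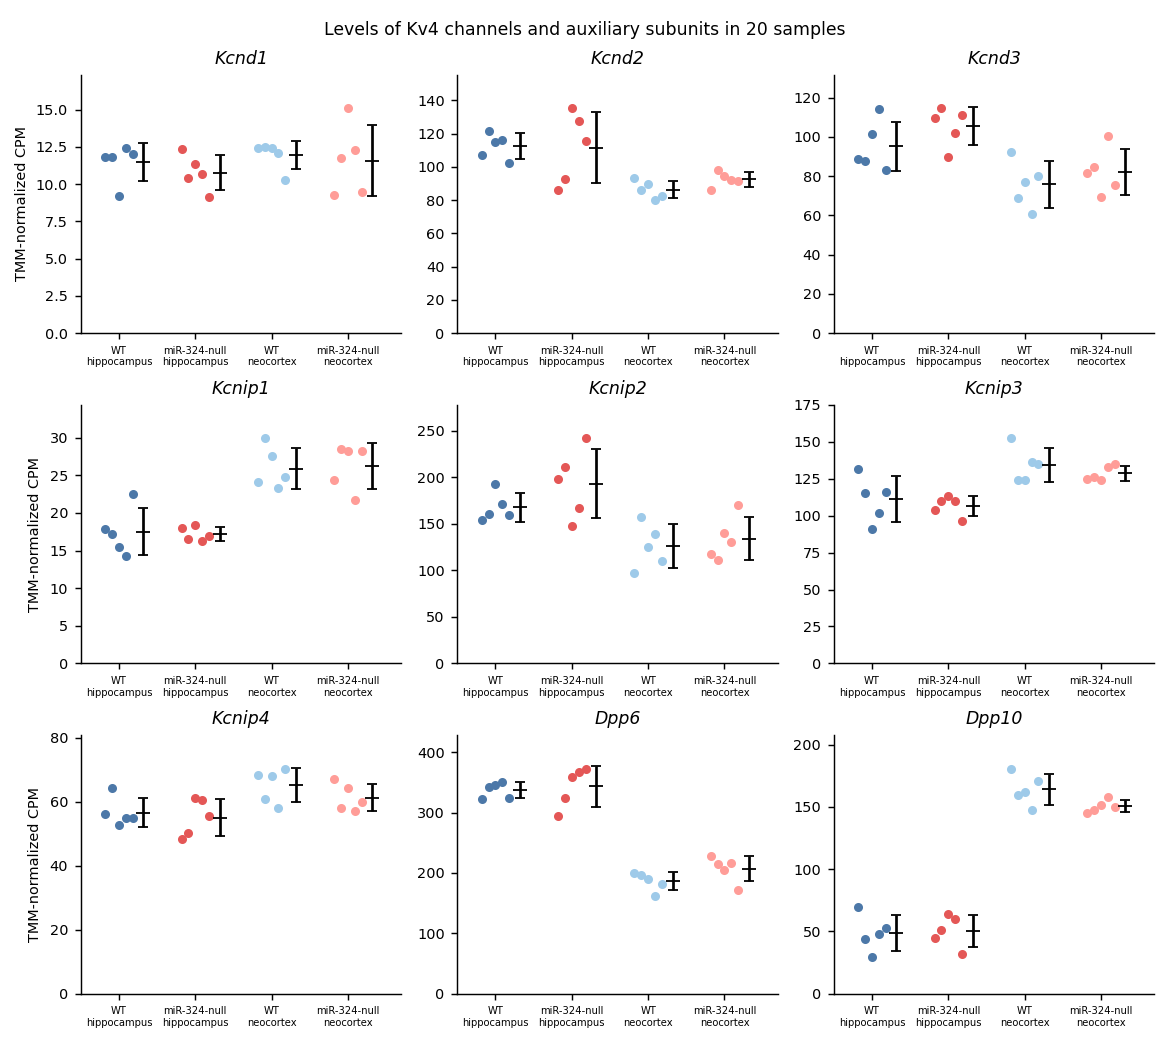
TMM-normalized CPM of the 9 genes in each of the 20 samples, by group, with replicates 1 to 5 from left to right and the mean and SD (n = 5) beside the points. Genotypes overlap in every panel, while the tissues separate fully for *Dpp6* (hippocampus higher) and *Dpp10* (neocortex higher).

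Between tissues, in contrast, 8 of the 9 genes differed. In the fit of all 20 samples, *Kcnd2*, *Kcnd3*, *Kcnip2* and *Dpp6* were higher in the hippocampus and *Kcnip1*, *Kcnip3*, *Kcnip4* and *Dpp10* were higher in the neocortex (quasi-likelihood test of edgeR, adjusted after Benjamini-Hochberg). The background is high, since 46.4% of 15391 genes passed this test, 23.3% as higher and 23.1% as lower in the hippocampus. Tissue pieces hold mixtures of cells, and fewer cells of a type cannot be told apart from less RNA per cell. The median size of the log2 fold change was 0.34 for the 9 genes and 0.17 for all genes tested. Whether the hippocampus and neocortex of one number came from the same mouse was not stated, and the fit took them as independent.

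The DPP-like pair showed the widest separation. *Dpp10* was at 69.9, 44.1, 29.2, 48.0 and 52.6 CPM in WT and at 44.3, 50.7, 64.0, 59.6 and 31.8 CPM in miR-324-null hippocampus, and at 145 to 181 CPM in all 10 neocortical samples given above. No hippocampal sample came within reach of a neocortical one, and the mean level in hippocampus was 0.314 times that in neocortex. The log2 fold change, hippocampus minus neocortex, was −1.67 (SE 0.12, adjusted p = 3.1e-10). The lowest level of each genotype was in the hippocampal library high in choroid plexus markers, and without the 3 such libraries the log2 fold change was −1.53 (SE 0.08, adjusted p = 9.8e-11). *Dpp6* moved the other way, at 322, 343, 346, 349.8 and 324.5 CPM in WT and 294, 324.4, 359.5, 368 and 373 CPM in miR-324-null hippocampus, against 162 to 227 CPM in the neocortex. Here too the tissues did not overlap, with a log2 fold change of 0.79 (SE 0.05, adjusted p = 1.1e-10). *Dpp6* and *Dpp10* were the 2 of 9 genes whose tissues did not overlap over both genotypes, as was the case for 12.7% of all genes tested.

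*Kcnip1*, a KChIP found in many GABAergic interneurons, was at 14.3 to 22.5 CPM in hippocampus and 21.7 to 29.9 CPM in neocortex. Over both genotypes the tissues overlapped, and within each genotype every hippocampal sample was below every neocortical one. The share of all genes with such a separation within a genotype was not computed. The log2 fold change was −0.59 (SE 0.07, adjusted p = 1.0e-06). The summed TPM of 10 interneuron markers was 1622 to 2252 in hippocampus and 2121 to 2385 in neocortex, and its part in this difference was not tested. *Kcnip2* had a log2 fold change of 0.47 (SE 0.10, adjusted p = 4.0e-04), which was 0.37 (adjusted p = 0.00352) without the libraries high in choroid plexus markers. *Kcnip3* and *Kcnip4* were lower in hippocampus by smaller amounts, −0.27 (SE 0.06, adjusted p = 3.5e-04) and −0.18 (SE 0.05, adjusted p = 0.00873) on the log2 scale, with overlapping tissues.

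Among the pore subunits, *Kcnd2* and *Kcnd3* had log2 fold changes of 0.33 (SE 0.07, adjusted p = 3.5e-04) and 0.34 (SE 0.08, adjusted p = 0.00105). For *Kcnd2* the WT tissues did not overlap, at 102 to 121.5 CPM in hippocampus and 79.9 to 93.1 CPM in neocortex, whereas the miR-324-null tissues did. Here too the share of all genes separated within a genotype was not computed. *Kcnd1* did not pass the test (log2 fold change −0.08, SE 0.08, adjusted p = 0.444). With WT samples alone 8 of 9 genes passed (36.1% of all genes tested), and with miR-324-null samples alone 6 of 9 did (27.4% of all), the values of the others being 0.28 (adjusted p = 0.0816) for *Kcnd2*, −0.14 (adjusted p = 0.190) for *Kcnip4* and −0.10 (adjusted p = 0.635) for *Kcnd1*. The interaction given above is the test of that difference and none passed. Striatal markers were also higher in neocortex than in hippocampus, and with the highest library of each neocortical group left out the same 8 genes passed the test of the tissues.

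**Figure D3:**
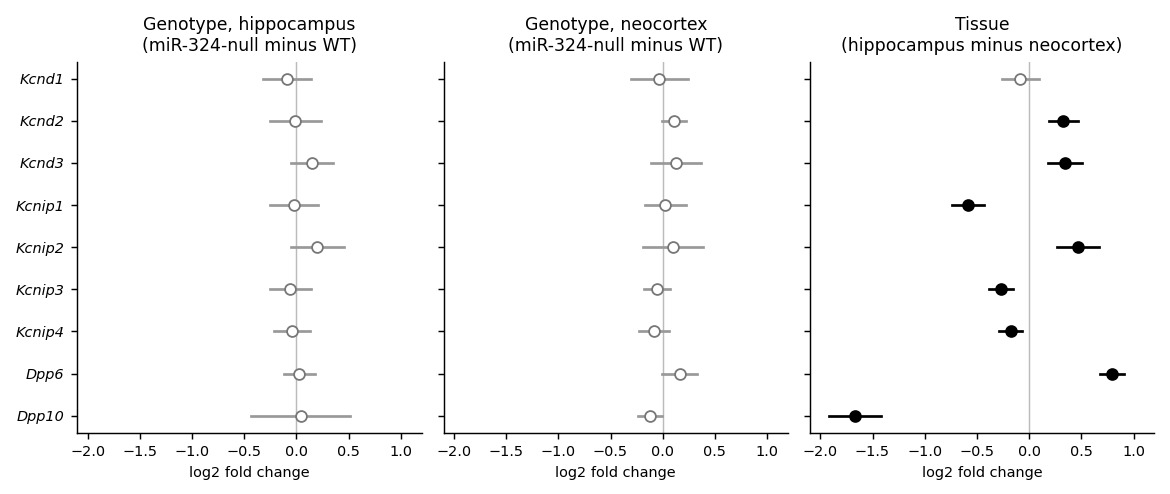
Log2 fold changes of the 9 genes with 95% confidence intervals, for miR-324-null minus WT in hippocampus and in neocortex (10 samples each) and for hippocampus minus neocortex (20 samples), with filled points where the adjusted p is at most 0.05 in edgeR's quasi-likelihood test. All genotype points are open and lie between −0.12 and 0.20, and in the tissue panel only *Kcnd1* is open.

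Levels of different genes were compared in TPM, which takes transcript length into account. In WT hippocampus *Dpp6* (125 ± 8.63 TPM, SD, n = 5) and *Kcnip2* (122 ± 14.5 TPM) led with overlapping ranges. They were followed, each without overlap with the next, by *Kcnip3* (69.6 TPM), *Kcnip4* (43.4 TPM), *Kcnd2* (36.1 TPM) and then *Kcnd3* (22.5 TPM). *Kcnd3*, *Dpp10* (19.2 TPM) and *Kcnip1* (17.2 TPM) overlapped as neighbours, and *Kcnd1* (3.59 TPM) was below all others. In WT neocortex *Kcnip2* (91.5 TPM), *Kcnip3* (85.9 TPM), *Dpp10* (70.9 TPM) and *Dpp6* (70.4 TPM) overlapped from each to the next. *Kcnip4* (51.2 TPM) came next, followed by *Kcnd2* (28.2 TPM) and *Kcnip1* (25.6 TPM), which overlapped, *Kcnd3* (18.3 TPM) and *Kcnd1* (3.83 TPM). *Dpp10* thus had rank 7 of the 9 in WT hippocampus and rank 3 in WT neocortex. In miR-324-null samples *Kcnip2* had the highest mean in both tissues, at 142 TPM in hippocampus and 106 TPM in neocortex. Its range overlapped that of the next gene in both, *Dpp6* in hippocampus (*Kcnip2* above it in 3 of 5 samples) and *Kcnip3* in neocortex.

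By family, the summed level of the Kv4 genes was 62.3 ± 6.44 TPM in WT and 64.3 ± 7.55 TPM in miR-324-null hippocampus, and 50.3 ± 5.82 and 55.9 ± 5.15 TPM in the respective neocortical groups (SD, n = 5 each). *Kcnd2* made up 55.4% to 58.1% of that sum in the group means and *Kcnd3* 36.1% to 39.3%. The share of *Kcnd1* was 4.51% to 6.67% in WT hippocampus and 6.84% to 8.64% in WT neocortex, without overlap, and its lowest hippocampal value was in the library high in choroid plexus markers. In miR-324-null samples the means were 5.30% and 7.05%, and the tissues overlapped. The KChIP sum lay between 252 and 268 TPM in the 4 groups, but its makeup differed between tissues. *Kcnip2* was 48.3% ± 4.87 of it in WT hippocampus and 35.9% ± 5.05 in WT neocortex, and *Kcnip1* was 6.82% and 10.1%. The DPP-like sum was likewise close in all groups, from 141 to 149 TPM. *Dpp6* was 86.6% ± 3.99 of it in WT hippocampus and 86.7% ± 3.01 in miR-324-null hippocampus, but 49.9% ± 1.94 in WT neocortex and 54.1% ± 3.26 in miR-324-null neocortex. The ratio of *Dpp6* to *Dpp10* was 4.49 to 12.4 in the WT hippocampal samples (4.49 to 7.12 without the library high in choroid plexus markers) and 0.883 to 1.08 in the WT neocortical samples. Relative to Kv4 mRNA, KChIP mRNA was 4.08 times and DPP-like mRNA 2.33 times as abundant in WT hippocampus, and 5.11 and 2.82 times in WT neocortex. These sums and shares are descriptions and were not tested.

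**Figure D4:**
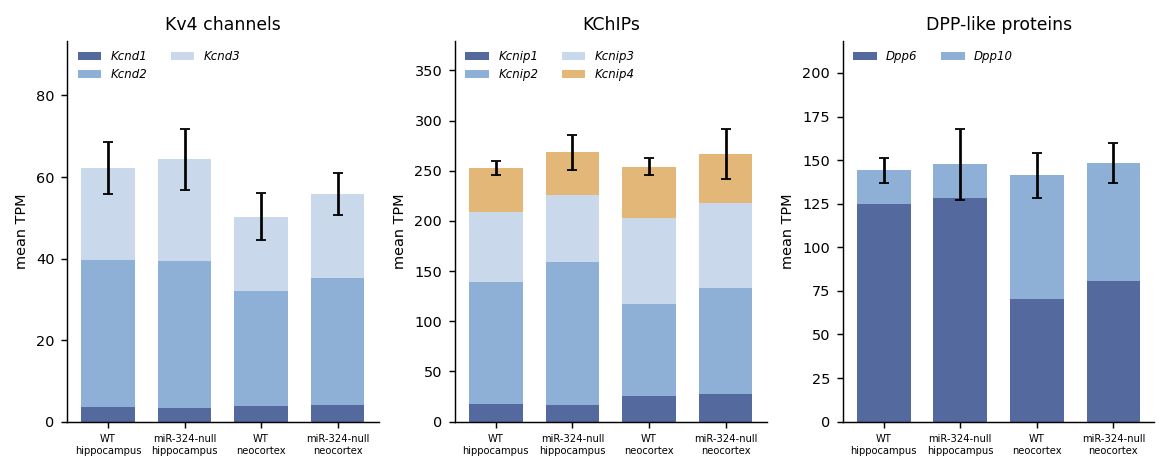
Mean TPM (n = 5) of each gene stacked within the Kv4, KChIP and DPP-like families in the 4 groups, with error bars for the SD of the family sum over samples. The KChIP and DPP-like sums are alike in height across groups, while *Dpp10* forms 50.1% (WT) and 45.9% (miR-324-null) of the DPP-like sum in neocortex and 13.4% and 13.3% in hippocampus.

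Of the 48 transcripts, 18 made up at least 5% of the TPM of their gene in at least 1 group, and 4 of the 30 others were at 0 in every sample. *Kcnd1*, *Kcnd3* and *Dpp6* each had 1 dominant transcript, with mean shares of 96.0% to 100% for Kcnd1-201, 92.4% to 94.5% for Kcnd3-202 and 91.0% to 94.8% for Dpp6-202. Kcnip3-203 held 83.6% to 85.2% of *Kcnip3* and Kcnip2-209 held 70.7% to 80.4% of *Kcnip2*. Reads that fit several transcripts of a gene were divided among them by an estimate, so single transcripts are less certain than gene sums. This showed in *Kcnip4*, where Kcnip4-205 took 9.26%, 31.2%, 14.8%, 0.0147% and 0.00051% of the gene in the 5 WT hippocampal samples and Kcnip4-207 took 36.3%, 9.83%, 19.6%, 21.8% and 42.5%. The sum of both was 37.1% ± 9.45 there and 35.9% ± 8.56 in miR-324-null hippocampus.

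Between tissues, 10 of the 25 transcripts tested passed the adjusted p of 0.05 in edgeR's quasi-likelihood test, 5 as higher and 5 as lower in the hippocampus. Over all 41103 transcripts tested the share was 16.3%, with 8.47% higher and 7.83% lower. Of *Kcnip1*, Kcnip1-203 was at 2.46, 2.51, 6.25, 3.78 and 6.96 TPM in WT hippocampus and at 15.5, 14.8, 12.3, 9.61 and 6.63 TPM in WT neocortex. In miR-324-null samples it was at 1.92 to 4.22 TPM in hippocampus and 4.77 to 12.5 TPM in neocortex, and over both genotypes the tissues overlapped. Its log2 fold change was −1.39 (SE 0.24, adjusted p = 3.0e-04). Kcnip1-201, which had a larger mean share of *Kcnip1* than Kcnip1-203 in every group, had −0.19 (SE 0.14, adjusted p = 0.449). All 3 tested transcripts of *Dpp10* were lower in hippocampus, by −1.69 for Dpp10-201 (adjusted p = 3.9e-08), −2.43 for Dpp10-203 (SE 0.47, adjusted p = 0.00108) and −0.90 for Dpp10-202 (SE 0.14, adjusted p = 1.3e-04). Of the others called, Dpp6-202 was at 0.86, Dpp6-204 at 0.63, Kcnip2-204 at 0.41, Kcnd3-202 at 0.37, Kcnd2-201 at 0.35 and Kcnip3-203 at −0.27 on the log2 scale. Without the 3 libraries high in choroid plexus markers 7 of 26 transcripts passed (background 13%). Kcnip2-204, Dpp6-204 and Kcnip3-203 then did not, at 0.34 (adjusted p = 0.114), 0.54 (adjusted p = 0.101) and −0.21 (adjusted p = 0.139) in edgeR's test on fewer samples.

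The share of a transcript within its gene was tested separately. Between tissues 0 of 23 transcripts passed in edgeR's test of differential usage (background 0.907%), with 3 at an unadjusted p under 0.05, namely Kcnip1-203, Dpp6-203 and Dpp10-202. With only transcripts of at least 10 estimated counts in every sample, these 3 of 11 passed (background 2.01%), at −0.79 (adjusted p = 0.0225), −1.26 (adjusted p = 1.4e-05) and 0.74 (adjusted p = 0.0351) relative to the rest of their genes.

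Dpp10-202, with its long 3′UTR and the 2 matches to miR-324-5p, was a minor transcript below the share used to choose transcripts and is described for those matches. It had 0.476 ± 0.128 TPM in WT and 0.422 ± 0.0864 TPM in miR-324-null hippocampus, and 0.935 ± 0.103 and 0.816 ± 0.128 TPM in the neocortex (SD, n = 5 each). Its mean share of *Dpp10* was 2.53% and 2.25% in the hippocampal groups and 1.33% and 1.22% in the neocortical groups, on estimated counts of 39.3 to 158 per sample. The genotypes overlapped in both tissues. The remainder of the *Dpp10* estimate was assigned to Dpp10-201, which held no match, and to transcripts for which no 3′UTR was annotated.

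Between genotypes 0 of 22 transcripts in hippocampus (background 0.0291%) and 0 of 24 in neocortex (background 0.0249%) passed the test in edgeR, with 2 and 1 at an unadjusted p under 0.05. The 1 in neocortex was Kcnip2-203, which was listed at 0 in all 5 WT samples and at 2.59, 10.7, 4.01, 6.32 and 16.7 TPM in the miR-324-null samples, or 3.10% to 12.1% of *Kcnip2*. These levels rested on estimated counts of 18.1, 102, 31.7, 54.0 and 149.6. The mean level was 19.1 times a floor of 3 counts in each WT library, and the adjusted p was 0.174 in edgeR's quasi-likelihood test. This floor covers counting error and not the division of shared reads among transcripts, so the ratio is not a lower bound on a difference. In miR-324-null neocortex the estimate of Kcnip2-202 ran from 5.6e-05 to 17.2 TPM. The share of all transcripts with genotypes separated in this way was not computed. In hippocampus the estimates for Kcnip2-203 were 0 or near 0 in 3 of 5 WT and 3 of 5 miR-324-null samples, and 17.4 and 33.0 counts in the other WT and 43.6 and 89.6 counts in the other miR-324-null samples. The 2 in hippocampus were Kcnip4-207 (log2 fold change −2.01) and Dpp6-204 (log2 fold change 0.48), both with an adjusted p of 0.9999. In transcript usage 0 of 20 passed in hippocampus (background 0.0282%, 1 at an unadjusted p under 0.05) and 0 of 22 in neocortex (background 0.0724%, 1 at an unadjusted p under 0.05).

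**Figure D5:**
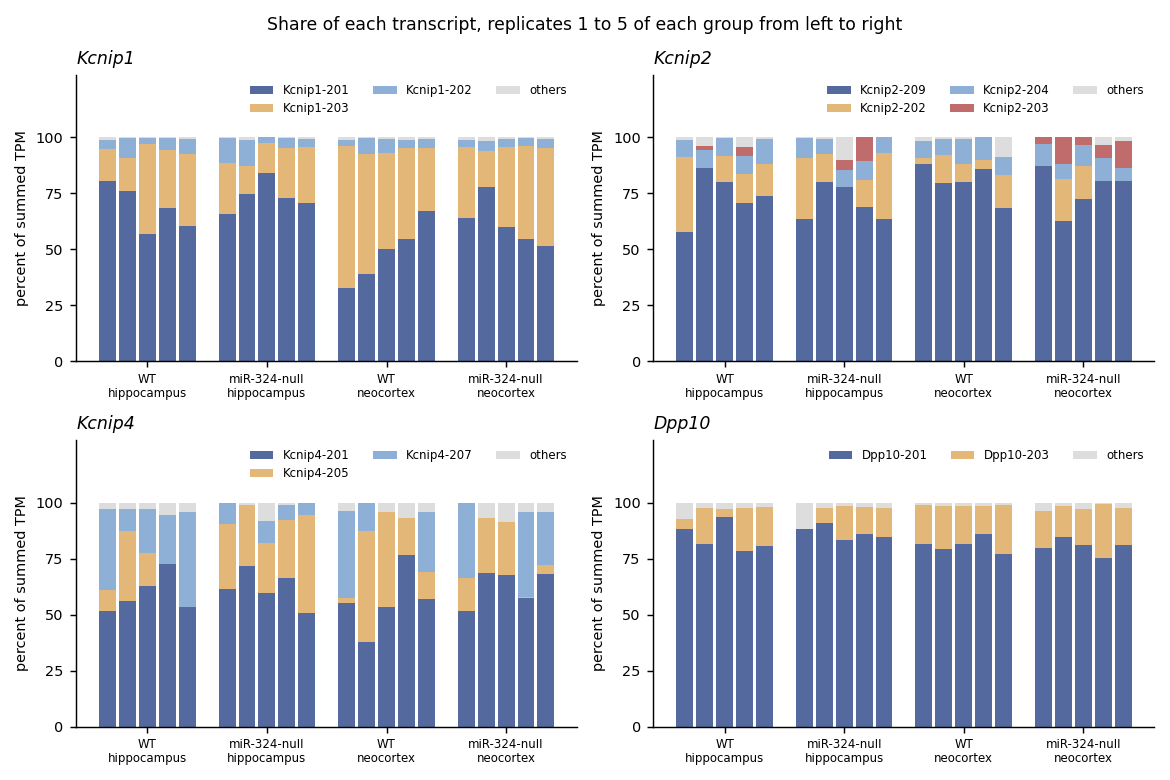
Share of each transcript in the summed TPM of *Kcnip1*, *Kcnip2*, *Kcnip4* and *Dpp10*, in percent, with 1 bar per sample and replicates 1 to 5 of each group from left to right. Kcnip2-203 appears in all 5 miR-324-null and in no WT neocortical samples, and the split between Kcnip4-205 and Kcnip4-207 changes from sample to sample.

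Further genes of A-type current and of the Kv4 complex were examined as lists. None of their members passed the genotype test in either tissue in edgeR. Among other subunits that carry or shape A-type currents, the beta subunits *Kcnab2* and *Kcnab1* were higher in hippocampus than in neocortex, by 0.68 and 0.61 on the log2 scale, as was the pore subunit *Kcna4*, by 0.52, while *Kcnab3* was lower, at −1.54 (adjusted p = 4.1e-08). *Kcnc4* (−0.13, adjusted p = 0.0656) did not pass. *Kcna4*, encoding the rapidly inactivating Kv1.4, had genotype log2 fold changes of 0.29 in hippocampus (SE 0.11, adjusted p = 0.361) and 0.42 in neocortex (SE 0.11, adjusted p = 0.152), which did not pass the test. In hippocampus and neocortex the genotype values were −0.16 and −0.12 for *Kcnab2*, −0.02 and 0.27 for *Kcnab1*, −0.28 and −0.28 for *Kcnab3*, and −0.09 and −0.002 for *Kcnc4*.

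Of 19 genes whose proteins bind, anchor or phosphorylate Kv4 channels, 15 were tested and the 4 not tested were *Kcne1*, *Kcne2*, *Kcne3* and *Kcne5*. Between tissues 7 were higher and 6 lower in hippocampus, beside the 23.3% and 23.1% of all genes given above. The T-type calcium channel gene *Cacna1h* was at 1.26 (SE 0.09, adjusted p = 3.1e-10), while its relatives *Cacna1i* and *Cacna1g* were at −0.67 and −0.56, the scaffold gene *Dlg1* at −0.70 and the kinase-anchoring gene *Akap5* at −0.52 on the log2 scale. Of the 4 catalytic relatives of the DPP-like proteins, *Fap* (−1.91), *Dpp4* (−1.62) and *Dpp8* (−0.19) were lower in hippocampus, and *Dpp9* (−0.10, adjusted p = 0.0603) did not pass.

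The genes whose levels were most like those of each subunit over the 20 samples were found by Pearson's r of log2 CPM. The samples fall into 2 tissues, so a shared tissue difference is enough to give a high r, and these values are descriptions. *Dpp6* was most like *Scn3b* (r = 0.991), *Gria1* (0.985) and *Nr3c2* (0.984), and *Dpp10* most like *Dkkl1* (0.991), *Ntm* (0.989) and *Fgf12* (0.988). *Kcnd2* was most like *Atp2b1* (0.944), *Cnksr2* (0.921) and *Cdh8* (0.919), *Kcnd3* most like *Tdrkh* (0.900), *Ctnnb1* (0.896) and *Chl1* (0.891), and *Kcnd1* most like *Slc38a9* (0.782), *Sidt2* (0.734) and *Fsbp* (0.728). For the KChIP genes the closest were *Abi3bp* (0.941), *Pcp4* (0.936) and *Prss22* (0.934) for *Kcnip1*, and *Ociad2* (0.914), *Coro2b* (0.904) and *Rnf112* (0.898) for *Kcnip2*. *Kcnip3* was closest to *Atp6ap1l* (0.924), *Srcin1* (0.915) and *Hrh1* (0.914), and *Kcnip4* to *Cmpk2* (0.818), *Tlk1* (0.815) and *Ncald* (0.813).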

How the data were processed

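Stranded mRNA libraries of 20 samples were pseudo-aligned by the authors with kallisto to an Ensembl mouse transcriptome of GRCm38, and the deposited files give an estimated count and a TPM for each of 115270 transcripts. The submitters' processing notes name a human build, while the transcript identifiers are those of mouse. Whether kallisto used the strand was not given in the sources used here.

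By identifier, 113580 transcripts were matched to GENCODE M21 on GRCm38, and the 1690 others (at most 0.5563% of the counts of a sample) were not used. The estimated counts of each gene's transcripts were added and rounded to integers. Sample groups and replicate numbers came from the labels. Genes were kept by the default filter of edgeR 4.0.16 (R 4.3.3, limma 3.58.1), scaled by TMM and tested by quasi-likelihood with Benjamini-Hochberg adjustment over all genes or transcripts tested, at 0.05. Genotypes were compared within each tissue, and tissue and interaction in a fit of all 20 samples. Transcript usage was tested with diffSpliceDGE. DESeq2 1.42.0 was an alternative. The tests were checked on simulated data with a fixed dispersion of 0.03 and changes of 1 on the log2 scale in well-counted genes or transcripts. For genotype the edgeR gene test recovered 99% of these changes in hippocampus and 98.5% in neocortex, and for the interaction 75.5%. diffSpliceDGE recovered 45% and 40% for genotype, and 73% between tissues. Among the calls, unchanged ones made up 2.9% to 6.2% in edgeR for genes and 4.3% to 8.8% for transcripts. For diffSpliceDGE they made up 6.3% to 9%, and for DESeq2 7.4% to 12.2%. Smaller changes were not simulated, so the recovery does not tell how often differences as small as those estimated here would be found. Nothing states that samples are separate mice beyond the labels, so p-values measure the spread between these samples. Floors of 3 counts cover counting error only. Python 3.11.15, numpy 2.4.6 and pandas 2.3.3 were used.

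Named transcripts had a mean of at least 5% of the TPM of their gene in 1 group. Likeness used a prior count of 2 and the 3 closest genes. One gene of a comparison list is not reported here, so no counts are given for that list. Members and gene lists were chosen with earlier results of these data known.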

Additional observations from a re-analysis of the deposited data

Results flagged for a closer look

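In 8 of the 108 groups of 5 samples examined (each of the 9 genes in CPM and each of the 18 named transcripts in TPM, by group), 1 sample stood apart from the other four by Dixon's criterion. Chance gives about 1 in 20 groups. *Kcnd1* was at 9.22 CPM in WT hippocampus replicate 3, where the nearest sample was at 11.8, and at 10.3 CPM in WT neocortex replicate 5 (nearest 12.1). *Kcnip4* was at 64.3 CPM in WT hippocampus replicate 2 (nearest 56.1). Among transcripts, Kcnip1-201 was at 16.0 TPM in miR-324-null hippocampus replicate 3 (nearest 12.2) and Kcnip4-205 at 19.1 TPM in miR-324-null hippocampus replicate 5 (nearest 12.3). Kcnip4-201 was at 17.6 TPM in WT neocortex replicate 2 (nearest 29.9). Dpp6-202 was at 60.5 TPM in miR-324-null neocortex replicate 5 (nearest 75.1), and Dpp10-203 at 18.8 TPM in miR-324-null neocortex replicate 4 (nearest 11.1). WT hippocampus replicate 3 and miR-324-null hippocampus replicate 5 were the hippocampal libraries high in choroid plexus markers, and the part of this in the values of *Kcnd1* and Kcnip4-205 was not tested.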

How the results depend on the processing

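The number of genes of the set that passed stayed at 0 for both genotype comparisons and the interaction and at 8 for the tissues under every alternative that used both genotypes, including DESeq2, other size factors, other filters, a transcript-length offset and each omission of a replicate (8 to 8 for the tissues). With samples numbered alike in a replicate block, 0 genes passed for genotype in either tissue and 8 for tissue, and 10 transcripts passed for tissue. Under the block Dpp6-204 no longer passed (adjusted p = 0.114 in edgeR), with a log2 fold change of 0.66 beside 0.63 without it, and the block lowered the calls over all genes from 17 to 4 in hippocampus and from 47 to 30 in neocortex. Not every correlation of the deviations of samples with equal numbers was over 0.1, so the numbers were not taken to pair samples. It ran from −0.172 to 0.177 over 4 comparisons of groups, and in the tissues of miR-324-null mice from 0.017 to 0.177, where 3 of 5 samples matched best with their own number (1 or 2 of 5 in the other comparisons). DESeq2 called 130 genes in hippocampus and 232 in neocortex over all genes. Omission of 1 replicate gave 8 to 11 transcripts called for tissue, Kcnip3-203 being lost in 15 of 20 such fits, and 0 to 1 for usage between tissues, the 1 being Dpp6-203 without miR-324-null hippocampus replicate 1 (adjusted p = 0.0455). With at least 10 counts in every sample 3 passed for usage, in a test of fewer transcripts.

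Signs of uncalled log2 fold changes turned. The omissions of libraries high in choroid plexus or striatal markers were chosen after seeing the data. Without the former, *Kcnip1* in neocortex was at −0.0076 and *Kcnip3* in the interaction at −0.033 (−0.0020 with no filter), and without the latter *Kcnd1* in the interaction was at 0.047. With 1 replicate left out, values in hippocampus ran from −0.090 to 0.068 for *Kcnd2*, −0.085 to 0.082 for *Kcnip1*, −0.12 to 0.013 for *Kcnip3*, −0.079 to 0.010 for *Kcnip4*, −0.0030 to 0.079 for *Dpp6* and −0.0998 to 0.21 for *Dpp10*. In neocortex they ran from −0.15 to 0.033 for *Kcnd1* and −0.015 to 0.086 for *Kcnip1*. In the interaction they ran from −0.12 to 0.063 for *Kcnd1*, −0.052 to 0.11 for *Kcnd3*, −0.10 to 0.058 for *Kcnip1* and −0.063 to 0.071 for *Kcnip3*. The cause was not tested. Without miR-324-null neocortex replicate 5, 566 genes were called in neocortex, and none was of the set.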
